A study of Arabidopsis thaliana with 4 samples.

Results

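MCCA (AT1G03090), MCCB (AT4G34030) and IVD (AT3G45300) code for enzymes of leucine breakdown in mitochondria. They were chosen by locus, with earlier results of these data known. The probe annotation of the array platform names 1 probe set for each, so that 3 of the 13286 genes named on these arrays are described here. The probe sets are 263118_at for MCCA, 253279_at for MCCB and 252570_at for IVD, and all 3 passed the filter on low signal. The 4 Affymetrix arrays were hybridised with RNA from whole Arabidopsis seedlings, 2 with wild type (WT) and 2 with the mutant ced1, both in the gl1-Col0 background, a line without leaf hairs. All seedlings were 16 days old and had spent 6 h on 40% polyethylene glycol (PEG), which withdraws water and imposes osmotic stress. In the study of ced1, NCED3, a key gene of abscisic acid synthesis, was only weakly induced by stress, and the mutation was placed in the cuticle gene BODYGUARD. Seedlings without PEG were not analysed here, so that all values are levels in stressed plants, and the labels do not say how many seedlings an RNA sample pooled. In such bulk samples, fewer cells of a type and less RNA per cell cannot be told apart.

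Leucine is first stripped of its amino group by branched-chain aminotransferases, and the keto acid is then oxidised to isovaleryl-CoA by the branched-chain keto acid dehydrogenase complex. IVD, isovaleryl-CoA dehydrogenase, oxidises that product to 3-methylcrotonyl-CoA and passes the electrons through the electron transfer flavoprotein and its ubiquinone oxidoreductase to the respiratory chain. Methylcrotonyl-CoA carboxylase (MCC) then adds a carboxyl group, with MCCA as the subunit that carries biotin and MCCB as the subunit that transfers the carboxyl group. In plants this pathway is known to feed respiration when sugars run short, as in prolonged darkness.

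After PEG, the transcripts of IVD and of the biotin subunit MCCA were lower in ced1 than in WT, by about 3.02-fold and 3.97-fold, while the signal of the partner subunit MCCB was not lower. Thus 2 of the 3 genes passed the test as lower in ced1, where 19.2% of all tested probe sets did, and none passed as higher, where 23.2% did. These shares are a background and no test of the 3 genes, which were chosen with earlier results known. The test was limma's, run over all 13648 probe sets that passed the filter, on log2(signal + 16), with Benjamini-Hochberg adjustment and a threshold of 0.05. Folds on this scale are slightly smaller than the ratio of the raw signals.

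The IVD signal was 2388.6 on WT array 1 and 1680.1 on WT array 2, against 654 on ced1 array 1 and 652.6 on ced1 array 2. Both ced1 arrays lay below both WT arrays, as they did for 33.6% of all tested probe sets, and nearly all of the spread was between the WT arrays. The mean of IVD fell from 2034 ± 501 in WT to 653.3 ± 0.990 in ced1 (SD over 2 arrays), a log2 difference (ced1 minus WT) of -1.59 ± 0.19 (SE, limma adjusted p = 0.000944). The 4 possible pairs of a ced1 and a WT array gave differences from -1.85 to -1.34, which split by the WT array used.

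MCCA had signals of 3410.3 and 3506 on WT arrays 1 and 2, and of 945.8 and 779.2 on ced1 arrays 1 and 2. Here the WT arrays were close together and the ced1 arrays somewhat apart, with no overlap between the genotypes. The mean fell from 3458 ± 67.7 in WT to 862.5 ± 118 in ced1, a log2 difference of -1.99 ± 0.15 (limma adjusted p = 0.000211). Over the array pairs the difference ran from -2.15 to -1.83.

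MCCB had signals of 764.2 and 831.7 on WT arrays 1 and 2, and of 896.1 and 1007.5 on ced1 arrays 1 and 2. Both ced1 signals lay slightly above both WT signals, a separation without overlap that 74.7% of all tested probe sets showed in one direction or the other. The means were 797.95 ± 47.7 and 951.8 ± 78.8, and the log2 difference of 0.25 ± 0.15 did not pass (limma adjusted p = 0.212). Its 95% confidence interval ran from -0.10 to 0.60, which does not reach the intervals of IVD (-2.04 to -1.15) or MCCA (-2.34 to -1.64). The MCCB value moved with the scaling of the arrays and was 0.08 when array medians were set equal, a scaling that moved the median of all tested probe sets by -0.17 from 0.07.

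**Figure D1:**
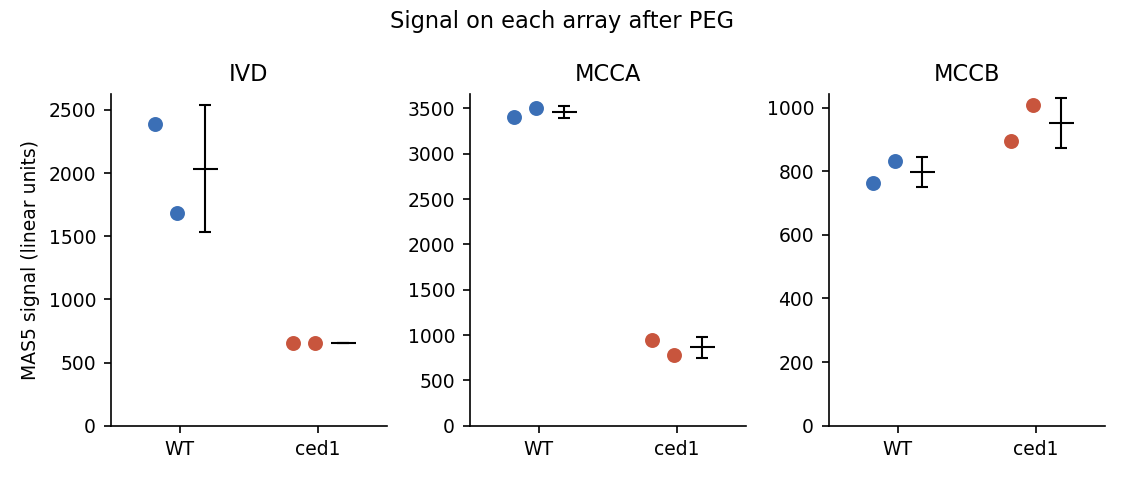
MAS5 signal in linear units (y axis, from 0, with its own scale in each panel) of IVD, MCCA and MCCB on each array by genotype; points are arrays, and the bar beside them is the mean with its SD (n = 2). IVD and MCCA stand at 1680.1 or more on the WT arrays and at 945.8 or less on the ced1 arrays, while MCCB lies between 764.2 and 1007.5 on all 4.

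Among all tested probe sets ordered from the most lowered upward, MCCA stood at rank 162 of 13648 and IVD at rank 364, within the lowest 1.19% and 2.67%. MCCB lay near the middle, with 39.2% of the probe sets above it. The WT arrays differed for IVD by 0.50 on the log2 scale, above the median of 0.24 for all tested probe sets and under their 90th percentile of 0.65. For MCCA it was the ced1 arrays that differed more, by 0.27, against a median of 0.12 and a 90th percentile of 0.36.

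**Figure D2:**
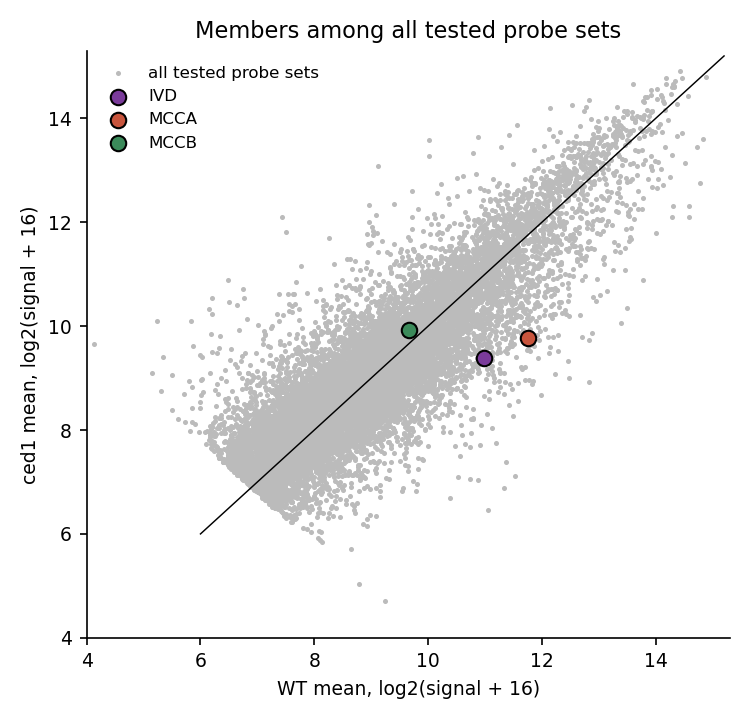
Mean log2(signal + 16) in WT (x axis) and ced1 (y axis) for the 13648 tested probe sets in grey, with equality as a line and the 3 leucine breakdown genes as large points. MCCA and IVD lie in the lower part of the cloud, at differences of -1.99 and -1.59, and MCCB lies just above the line at 0.25.

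The 2 subunits of MCC work in one enzyme, so their signals were set against each other within each array. A ratio of 2 probe sets depends on how well each probe set binds, so its size says nothing of subunit numbers and only its change between arrays can be read. The MCCA signal divided by the MCCB signal was 4.46 and 4.22 on WT arrays 1 and 2, and 1.06 and 0.773 on ced1 arrays 1 and 2. In log2(signal + 16) the ratio averaged 2.09 ± 0.06 in the WT arrays and -0.14 ± 0.31 in the ced1 arrays (SD, 2 arrays each), a shift of -2.24 or 4.72-fold. The genotypes did not overlap, and the two-sided exact permutation test gave p = 0.333, which is the smallest that 2 arrays against 2 allow. Of single tested probe sets 74.7% were without overlap, and the share among ratios was not computed. The shift of a log2 ratio is the difference of its first gene less that of its second. It thus restates the values of MCCA and MCCB given above, and the ratios below do the same for their genes.

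Between IVD and MCCA the ratio was less affected by genotype. It was 0.700 and 0.479 on the WT arrays and 0.691 and 0.838 on the ced1 arrays, so that the genotypes overlapped. The log2 shift was 0.40, from -0.78 ± 0.38 to -0.39 ± 0.19 (two-sided exact permutation p = 0.667). Leaving out WT array 1 made it 0.67 and leaving out WT array 2 made it 0.12, so the size of this shift rests on which WT array is used. IVD over MCCB was 3.13 and 2.02 on the WT arrays and 0.730 and 0.648 on the ced1 arrays, a log2 shift of -1.84 without overlap (exact permutation p = 0.333). No other ratios among the members exist, and p-values for these 3 cannot pass any threshold in this design.

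For comparison, 2 other pairs of partner subunits were taken from the lists after their values were seen. The ratio of ETFALPHA to ETFBETA, the subunits of the electron transfer flavoprotein, shifted by 0.24 with overlapping genotypes (exact permutation p = 0.667). SDH1-1 over SDH2-1, the flavoprotein and iron-sulfur subunits of succinate dehydrogenase, shifted by -0.58 (exact permutation p = 0.333). Here too the genotypes did not overlap, with ratios of 1.22 and 1.59 on the WT arrays and 0.965 and 0.898 on the ced1 arrays. Both shifts were smaller than the -2.24 of MCCA over MCCB, with no test of that difference.

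**Figure D3:**
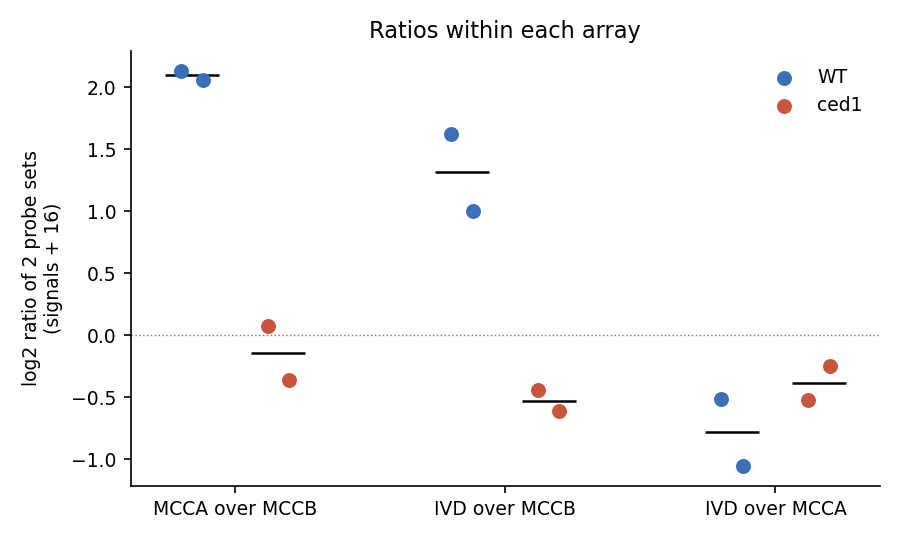
Log2 ratio of the signals (+ 16) of 2 probe sets within each array (y axis) for the 3 pairs of members (x axis), with WT arrays in blue, ced1 arrays in red and the genotype mean as a line. MCCA over MCCB drops from about 2.09 to -0.14 and IVD over MCCB from 1.31 to -0.53, while the genotypes overlap for IVD over MCCA.

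The neighbouring steps of branched-chain amino acid breakdown were looked at next. Of 22 loci in 4 lists, 12 have a named probe set and all 12 were tested. In ced1, 4 of them were lower and 3 were higher, while 5 did not pass, beside 19.2% lower and 23.2% higher over all tested probe sets. The count of higher genes was thus close to that background. The median log2 difference of the 12 was -0.04 against 0.07 over all tested probe sets. The 4 lower genes and this median include D2HGDH, which does not receive electrons from IVD but feeds its own into the electron transfer flavoprotein. Lists were compiled by role, and for loci that the gene table gives without a name the list is the one source of the role here. Equal array medians left 4 lower and 1 higher. With either ced1 array left out fewer of them passed, as was so over all tested probe sets. The spread in such a fit comes from the WT arrays alone. These differed by a median of 0.24 on the log2 scale, against 0.12 for the ced1 arrays. A call lost without a ced1 array, here or below, is thus not particular to its gene.

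Upstream of IVD, 3 of 12 loci for the aminotransferases and the keto acid dehydrogenase complex have a named probe set, so most of these steps are not described. ATBCAT-5, a branched-chain aminotransferase, rose from 604.7 ± 7.07 in WT to 864.55 ± 5.16 in ced1, a log2 difference of 0.50 ± 0.14 (limma adjusted p = 0.0250). This call was lost with equal array medians (0.34, adjusted p = 0.108) and without either ced1 array. AT1G50110, listed with the aminotransferases, had signals of 102.8 and 145.5 in WT and 214.4 and 193.4 in ced1, a difference of 0.67 ± 0.23 just short of the threshold (adjusted p = 0.0524), and it passed under 4 of the 11 alternatives that gave it a value. AT5G09300, listed with the dehydrogenase complex, differed by 0.44 ± 0.24 (adjusted p = 0.178). For each of the 3, both ced1 signals lay above both WT signals. Of all tested probe sets, 74.7% showed such a separation in one direction or the other.

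Electron transfer takes up the electrons of IVD, and 3 of the 4 genes listed with it were lower in ced1, beside 19.2% of all tested probe sets. Among these, D2HGDH, D-2-hydroxyglutarate dehydrogenase, does not receive electrons from IVD but feeds its own into the same flavoprotein. D2HGDH had signals of 795.5 and 620.9 in WT and of 330.4 and 326 in ced1. Its log2 difference was -1.06 ± 0.17 (limma adjusted p = 0.00336), and it was the call among the neighbouring steps that held under every alternative tried. ETFALPHA had signals of 690.2 and 628.4 in WT and 466.5 and 402.1 in ced1, and differed by -0.59 ± 0.16 (adjusted p = 0.0229). ETFBETA, at 1321.9 and 807.2 in WT and 552.3 and 597.9 in ced1, differed by -0.83 ± 0.23 (adjusted p = 0.0262), or by -0.48 without WT array 1. Both flavoprotein subunits lost their call, as many probe sets did, without ced1 array 1 (-0.69 and -0.77) or without ced1 array 2 (-0.48 and -0.88). ETFBETA also lost it without the filter on low signal (adjusted p = 0.0544). ETFQO, which hands the electrons on to ubiquinone, had overlapping signals of 326.5 and 285.2 in WT and 295.6 and 284.1 in ced1, a difference of -0.07 ± 0.17 (adjusted p = 0.759).

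Downstream of MCC, both listed loci have a probe set and neither was lower. AT4G16800 was higher in ced1, with signals of 431 and 407.8 against 195 and 236.9 in WT, a log2 difference of 0.91 ± 0.18 (limma adjusted p = 0.00624) that missed the threshold when either ced1 array was left out (adjusted p = 0.0709 without array 1 and 0.0549 without array 2). AT2G26800 had overlapping signals of 1010.2 and 1171.6 in WT and 974.1 and 1195.5 in ced1, a difference of -0.01 ± 0.16. For the breakdown of valine and isoleucine, which shares the first steps with leucine, AT4G20930 was lower at -0.68 ± 0.16 (adjusted p = 0.0143), AT4G31810 was higher at 0.57 ± 0.17 (adjusted p = 0.0345) and ALDH6B2 differed by -0.19 ± 0.14 (adjusted p = 0.312). Neither of these calls held when either ced1 array was left out, and AT4G31810 also lost its call with equal array medians, with quantile normalization and without the filter on low signal. ALDH6B2 passed without WT array 2, at -0.31, and was at -0.07 without WT array 1.

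**Figure D4:**
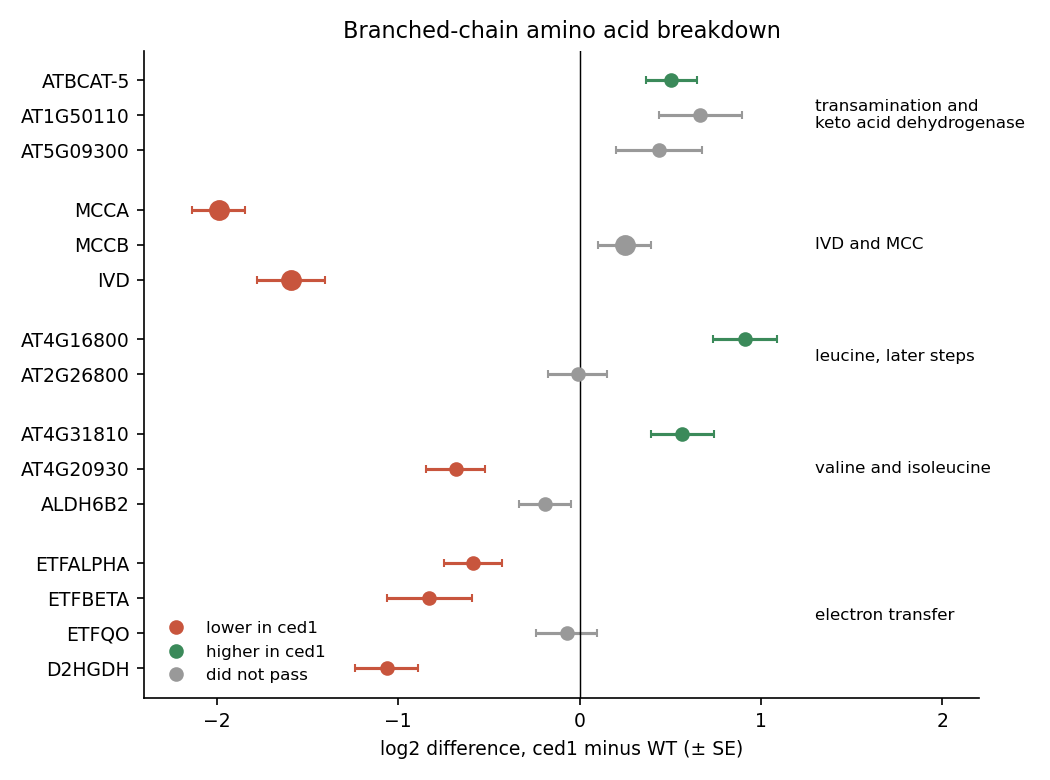
Log2 difference, ced1 minus WT, with its SE (x axis) for the 3 members (large points) and the 12 named genes of neighbouring steps, grouped by list. Red is lower in ced1, green higher, and grey did not pass. MCCA and IVD have the 2 lowest values, at -1.99 and -1.59, followed by D2HGDH at -1.06, while genes upstream of IVD lie to the right of 0.

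Of 6 tested genes for the breakdown of other amino acids, 5 were lower in ced1, beside 19.2% of all tested probe sets. Their median was -1.21 on the log2 scale, and 18 of the 24 loci of that list are unnamed here. The bifunctional lysine-degrading enzyme LKR/SDH (AT4G33150) had signals of 5942.5 and 5456.4 in WT and 1168.9 and 1157.8 in ced1, a log2 difference of -2.28 ± 0.13. MGL, methionine gamma-lyase, which begins methionine breakdown, differed by -1.60 ± 0.15, close to the value of IVD. ALDH7B4, an aldehyde dehydrogenase, differed by -1.26 ± 0.11 and the ornithine aminotransferase gene DELTA-OAT by -1.16 ± 0.15. For these 4 genes limma's adjusted p lay between 0.000101 and 0.00135.

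Of 15 loci for the synthesis of leucine, valine and isoleucine, 3 were tested and 2 were higher, beside 23.2% of all tested probe sets. The other 12 are unnamed here, so most of this synthesis is not described. The higher ones were AT3G23940 at 0.89 ± 0.21 and AT3G58610 at 0.58 ± 0.15, while AT2G31810 differed by -0.46 ± 0.21 and did not pass. The call of AT3G58610 was lost without either ced1 array, with equal array medians and without the low-signal filter, and that of AT3G23940 without ced1 array 2. AT2G31810 was at -0.14 without WT array 1, and passed as lower without WT array 2, at -0.78, and with the replicate number as a block, at -0.46. Of 11 loci for biotin supply and other biotin enzymes none has a named probe set, so the cofactor of MCCA is not described.

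Of 16 tested general mitochondrial genes, 12 did not pass, 3 were lower and 1 was higher, and the lower count was near the 19.2% over all tested probe sets. The median was -0.12, or -0.29 with equal array medians and -0.02 without WT array 1. Among them, SDH1-1 was at -1.10 ± 0.12, IDH-V, a subunit of isocitrate dehydrogenase, at -0.70 ± 0.18 and SDH2-1 at -0.52 ± 0.16, or -0.34 without WT array 1. The higher one was AT5G23250 at 0.89 ± 0.15. SDH1-1 kept its call under every alternative tried, whereas IDH-V and SDH2-1 lost theirs without ced1 array 1 or without ced1 array 2, SDH2-1 also without the filter on low signal or the variance trend, and AT5G23250 without ced1 array 1. A second probe set of SDH2-1 was under the filter, with signals from 4.7 to 30.9. None of the 16 was as low as IVD or MCCA.

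Among 18 markers of darkness and sugar shortage the probe table names 2, each of them lower in ced1, beside 19.2% of all tested probe sets. The 16 unnamed ones are not described, so these 2 do not stand for the list. BZIP53, a transcription factor gene that is known to act on amino acid breakdown genes under low energy, had signals of 5111.9 and 4471.6 in WT and 2732.7 and 3088.3 in ced1, a log2 difference of -0.72 ± 0.14 (limma adjusted p = 0.00595) that did not pass without ced1 array 1 (-0.63). AT3G15450 differed by -0.64 ± 0.10. Of 15 loci of peroxisomal beta-oxidation, another route that oxidises acyl-CoA esters, AIM1 was tested and differed by -0.28 ± 0.13 (adjusted p = 0.131). It passed without WT array 2, at -0.34.

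**Figure D5:**
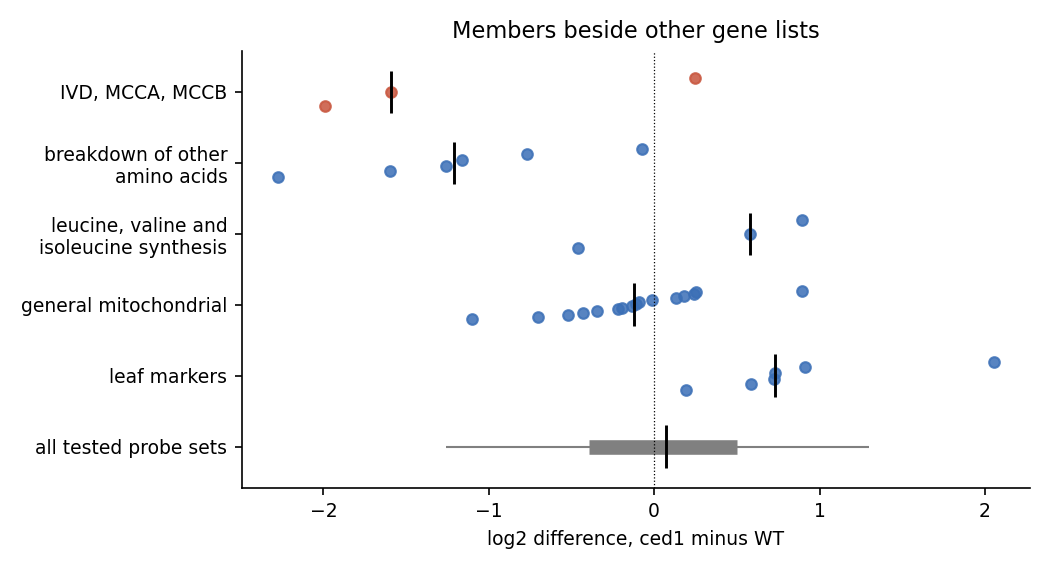
Log2 difference, ced1 minus WT (x axis), of the tested members of 5 gene lists; points are genes, black ticks are medians, and for all tested probe sets the thick bar spans the 25th to 75th and the thin line the 5th to 95th percentile. IVD, MCCA and most genes for other amino acids lie to the left of or near the 5th percentile of -1.26, and the general mitochondrial genes centre on -0.12.

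Named probe sets were ranked by how closely their 4 log2 signals, each centred on its mean over the arrays, followed those of a member, as a Euclidean distance over the 4 arrays among 7237 single-gene probe sets. With 4 arrays in 2 genotypes, such likeness mostly restates the size of the genotype difference and the spread within WT. IVD and MCCA lay 0.58 apart, and MCCB lay 1.90 from IVD and 2.26 from MCCA. Nearest to IVD were AT1G29195 (0.0700), AT4G31860 (0.0957) and AT1G68440 (0.0997), whose WT array 1 also exceeded WT array 2. MCCA was followed most closely by AT3G02480 (0.105), AT1G07040 (0.140) and AT1G28260 (0.166). AT3G02480 had signals of 20657.3 and 19600.9 in WT and of 5368 and 4734.2 in ced1, a difference of -1.99 ± 0.12. Nearest to MCCB were AT5G60590 (0.0252), AT5G19510 (0.0330) and AT1G50020 (0.0363), with differences from 0.25 to 0.26 that did not pass, although AT5G19510 and AT1G50020 did without WT array 2 (0.31 and 0.34). To the mean of the 3 members the nearest were AT5G18640, AT1G26270, AT1G80290, AT5G08535 and AT5G17380, at distances from 0.0305 to 0.0765. Their differences ran from -1.16 to -1.08, a level that none of the 3 members has, so they follow the mean and no member.

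The members lie on chromosomes 1, 3 and 4, and their nearest tested genes on either side were read after the other values were seen. NET1D (AT1G03080), the gene next to MCCA, had signals of 1191 and 1435.1 in WT and of 298.2 and 329.2 in ced1, a log2 difference of -2.01 ± 0.16 (limma adjusted p = 0.000285) close to that of MCCA. On the other side, TRM82, a tRNA modification gene 4 genes away, was higher at 0.78 ± 0.17 (adjusted p = 0.0108), though not without ced1 array 1 or without ced1 array 2. In the gene table the MCCA model overlaps 1 other, AT1G03100, whose probe set was under the filter at 61.4 to 91.8. Whether any MCCA probe reaches the overlap was not tested. AT3G45310, next to IVD, differed by -0.04 ± 0.16, and AT3G45260, 5 genes away, by -0.61 ± 0.34 (adjusted p = 0.185), or by -1.14 past the threshold without WT array 1 and by -0.08 without WT array 2. Near MCCB, AT4G33985 at 4 genes differed by -0.38 ± 0.17 and passed with equal array medians (-0.55) and with quantile normalization (-0.47), and AT4G34090 at 5 genes was higher at 0.74 ± 0.15, a call lost without ced1 array 1 or without ced1 array 2.

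The arrays as a whole also differed by genotype. Median signals were 156.3 and 173.3 in WT and 186.45 and 187.5 in ced1, and log2 signals of the tested probe sets correlated across probe sets with r of 0.970 and 0.989 within a genotype and of 0.839 to 0.874 between them. Leaf markers, of which 6 of 12 are named, summed to 53037 and 70344.6 in WT and to 98806.5 and 104323 in ced1, with 5 of 6 higher, beside 23.2% of all tested probe sets, and the largest difference in LHCB4.2, a light-harvesting protein, at 2.05 ± 0.48, or 1.16 without WT array 1. Of the others, PSAN, PSBY and PSBW are small subunits of the photosystems. PSAN differed by 0.91 ± 0.11, and PSBY and PSBW each by 0.73, with SEs of 0.16 and 0.12. PSBY and PSBW did not pass without ced1 array 2, at 0.67 and 0.66. Root markers, of which 3 of 10 are named, summed to 9787.6 and 9693.5 in WT and to 6535.7 and 6064.4 in ced1. This sum was mostly PYK10, a root beta-glucosidase, which was lower at -0.64 ± 0.11, though not without ced1 array 2, whereas EXPA18, an expansin of root hairs, differed by -0.06 ± 0.23. Of the named markers EXPA7 lay under the low-signal filter, at 46.3 to 126.5. The part of a different share of leaf and root in the values of IVD and MCCA was not tested.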

How the data were processed

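Signals of 2 WT and 2 ced1 arrays were used. The deposited intensity values are linear signals, 1 for each probe set. The submitters' processing notes name MAS5, which subtracts background and scales each array, without a version or settings. Trimmed means (2nd to 98th percentile) of the 4 arrays were 494.4 to 495.7, so the values had been scaled to a common level. Between 36 and 62 signals were identical in any 2 arrays, so none was a copy. No detection calls were used, which leaves low signals undistinguished from absence, and the number of arrays limits the precision. How the biological replicates of the labels were grown apart is not stated, and p-values thus cover the spread among these 4 samples, which may be technical.

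Log2(signal + 16) was fitted by genotype with limma 3.58.1 in R 4.3.3, using lmFit and a trended eBayes. The 9098 probe sets with a mean below the 40th percentile, near a signal of 102.7, were left out, and p-values were adjusted over the other 13648 by Benjamini-Hochberg. Each probe set has 2 residual degrees of freedom, so calls rest on the spread shared across probe sets. Ratios were compared by exact permutation over arrays. The fit was also run on simulated data with the same spread in both genotypes and few changed probe sets. These arrays differ in both respects, so that run does not check the calls given here.

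Genes were named through the platform's probe table, which pairs 13513 probe sets with 1 gene and 503 with several; the 8730 it does not list are unnamed here. By gene ID, 13436 of the former matched the TAIR10.1 gene table. Probe sequences were not used here, so the probe table's assignment was not checked. Members and lists were chosen with earlier results of these data known. Named are the members, all named genes of the 4 lists of neighbouring steps, up to 4 of each other list with the largest absolute difference, and the genes nearest in pattern (3 to each member and 5 to their mean); chromosomal neighbours and the comparison of other subunit pairs were added after seeing values. Alternatives were offsets of 1 and 64, no filter, a 60th percentile filter, quantile normalization, equal array medians, no variance trend, a replicate block and leaving out each array.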

Additional observations from a re-analysis of the deposited data

How the results depend on the processing

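IVD and MCCA stayed lower and past the threshold under all 12 alternatives, from -1.85 to -1.34 and from -2.16 to -1.85, and MCCB did not pass under any, from 0.08 to 0.33 (adjusted p from 0.0639 to 0.710). The shift of MCCA over MCCB lay between -2.46 and -2.02. Over all probe sets, 3161 were higher and 2626 lower; leaving out 1 array gave 1240 to 4475 higher and 1316 to 3372 lower, with the fewest without a ced1 array, and equal array medians gave 2213 and 3437. Among the neighbouring steps, leaving out 1 array gave 0 to 4 higher (3 with all arrays) and 1 to 5 lower (4 with all), and equal array medians gave 1 higher. With 1 array left out, the single remaining array of a genotype is taken to vary as the other genotype does. Nothing in the labels pairs the arrays by number; deviations of same-numbered arrays correlated across probe sets at 0.0912. With a replicate block, 3608 probe sets were higher and 2951 lower, and MCCB was at 0.25 (adjusted p = 0.254). Of 52 other named genes under up to 12 alternatives each, 617 values in all, 37 lost and 13 gained their call and none reversed. The cause of these changes was not tested.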
